A study of Rattus norvegicus with 12 samples.

Results

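The 10 genes described here encode proteins that hold endothelial cells (ECs) to each other or set what passes the endothelium: the cadherins Cdh5, Cdh2 and Cdh13, the tight junction proteins Cldn5, Ocln and Tjp1, the immunoglobulin-type adhesion proteins Esam, Cxadr and Pecam1, and Plvap of the endothelial diaphragms. They were chosen by name, with earlier results of these data known. They are 10 of the 14508 genes for which the array had a probe set annotated to that gene alone. Each of the 10 had exactly 1 such probe set. Before birth the ductus arteriosus (DA) lets blood bypass the lungs, and in the newborn it shuts. The study compared ECs of both vessels before and after the first breaths. Wistar rats of the 21st day of gestation were delivered by cesarean section and taken either as fetuses before breathing (F group) or as neonates 30 minutes after birth (N group). The 4 groups were DA ECs of the F group, aorta ECs of the F group, DA ECs of the N group and aorta ECs of the N group, with 3 arrays each. The cells came from pooled tissue of many litters, the aorta being the descending part, the labels name no genetic change or drug, and ECs were taken by flow sorting as CD31-positive, CD45-negative cells. A replicate was thus a pool of sorted cells and not an animal, and the spread behind each p-value is that between pools. The litter totals in the study's methods mean that litters were gathered anew for each replicate, and DA and aorta pools of a replicate may have shared them.

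At endothelial borders, VE-cadherin (Cdh5) forms the adherens junction with catenins inside the cell, while claudin-5 (Cldn5) and occludin (Ocln) form tight junction strands that ZO-1 (Tjp1) ties to actin. N-cadherin (Cdh2) is held largely outside these borders in ECs and is known for contacts with mural cells, and T-cadherin (Cdh13) is attached to the membrane by a lipid anchor and has no cytoplasmic tail. PECAM-1 (Pecam1), ESAM (Esam) and CAR (Cxadr) are immunoglobulin-type proteins of cell borders, and PLVAP (Plvap) builds the thin diaphragms of caveolae and fenestrae.

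Values are log2 signals, so that a difference of 1 is a fold of 2. The array medians lay between 5.63 and 5.76, and 18690 of the 26468 probe sets reached the mean of the lys spike, a control RNA, at 4.44. The spike itself ran from 3.41 to 6.17 over the arrays, so that counts of arrays below it depend also on the spike of each array. All 10 genes were tested and lay above the lys spike on all 12 arrays. The cell type label was checked against marker lists. The 11 endothelial markers measured had a mean log2 signal of 9.50 to 9.61 in DA ECs and 9.58 to 9.87 in aorta ECs of the F group, and of 9.63 to 9.67 in DA ECs and 9.76 to 9.78 in aorta ECs of the N group. The leukocyte marker Ptprc, which encodes CD45, lay below the lys spike on 9 of 12 arrays, and 4 of the 6 leukocyte markers averaged below it. Smooth muscle markers were detected in both vessels, with the higher list averages in the DA. The 9 smooth muscle markers averaged 7.38 to 7.56 in DA ECs and 7.03 to 7.10 in aorta ECs of the F group, and 7.50 to 7.81 in DA ECs and 7.11 to 7.14 in aorta ECs of the N group. In RNA from many cells, fewer cells of a type and less RNA per cell cannot be told apart.

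The first question was which of these genes differed between ECs of the DA and of the aorta. Cdh2 and Cxadr were higher in ECs of the DA at both stages, by 2.24 and 3.50 fold over the stages together. Cdh13, Plvap and Cldn5 were lower in ECs of the DA, and Tjp1 was lower by a small margin. Cdh5, Pecam1, Ocln and Esam did not pass the test, although for 3 of these 4 the DA array lay below its aorta counterpart in each of the 6 same-number pairs. In the F group 4 of 10 genes passed an adjusted p of 0.05 (limma, Benjamini-Hochberg over all tested probe sets), against 3.77% of all probe sets. Of these, 2 were higher, against 1.49%, and 2 lower, against 2.28%. In the N group 4 of 10 passed, against 3.14% of all probe sets, with 2 higher (1.26% of all) and 2 lower (1.87% of all). Over both stages 6 of 10 passed, against 8.12% of all probe sets, with 2 higher (3.19% of all) and 4 lower (4.93% of all). A fold of at least 2 besides was met by 3 genes, Cdh2, Cxadr and Cdh13, in the F group (1.38% of all), in the N group (1.27%) and over both stages (1.31%). At an unadjusted p of 0.05, 6 of 10 genes passed in the F group, 5 in the N group and 7 over both stages, against 13.2%, 10.6% and 18.2% of all probe sets. DA and aorta arrays did not overlap for 7 of 10 genes over both stages, against 6.98% of all probe sets, and these 7 were the 6 that passed and Esam. They also did not overlap for 7 of 10 genes within the F group, against 18.6%, and for 7 of 10 within the N group, against 15.3%. The median size of the log2 difference over both stages, without its sign, was 0.44 for the 10 genes and 0.11 for all tested probe sets. The signed median was -0.21 for the 10 genes and -0.00 for all probe sets. The 10 genes were chosen with earlier results of these data known. These counts and medians thus describe the 10 and do not test junction genes as a class.

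**Figure D1:**
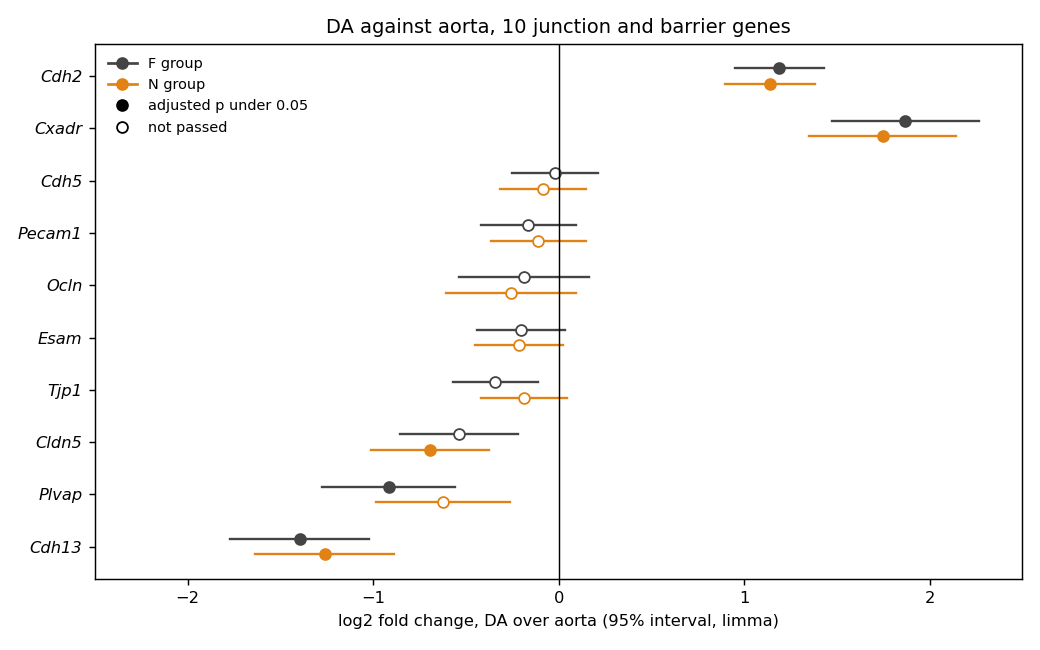
The log2 fold change of DA over aorta is plotted on the horizontal axis for each of the 10 genes in the F and the N group, with its 95% interval from limma, and filled points passed an adjusted p of 0.05. Cdh2 and Cxadr lie right of 0 at both stages, between 1.14 and 1.87, and Cdh13 lies left of 0 at -1.40 in the F group and -1.26 in the N group.

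Cdh2 encodes N-cadherin. Its log2 signal was 8.52, 8.52 and 8.63 in DA ECs, against 7.55, 7.22 and 7.33 in aorta ECs of the F group. The N group had 8.52, 8.52 and 8.55 in DA ECs, against 7.41, 7.34 and 7.43 in aorta ECs. The 6 DA arrays lay within 0.11 of each other, and the lowest of them stood 0.97 above the highest aorta array. The log2 fold change of DA over aorta was 1.19 (SE 0.11, adjusted p = 5.77e-05, limma) in the F group and 1.14 (SE 0.11, adjusted p = 9.48e-05, limma) in the N group. The fold over both stages was 2.24, with a 95% interval of 1.99 to 2.52. Of the 3 cadherins in the set, Cdh2 alone was higher in the DA. The log2 signal of Cdh2 minus that of Cdh5 on the same array was -2.52 ± 0.05 in DA ECs and -3.73 ± 0.23 in aorta ECs of the F group (SD, n = 3). In the N group it was -2.52 ± 0.09 in DA ECs and -3.74 ± 0.03 in aorta ECs (SD, n = 3). This difference shows how the pair shifted between vessels and is not a ratio of transcripts, since the signals come from different probes.

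Cxadr encodes CAR, the receptor that coxsackieviruses and adenoviruses share and a protein of tight junctions in epithelia. Cxadr had a log2 signal of 8.79, 8.86 and 9.13 in DA ECs, against 6.83, 7.26 and 7.08 in aorta ECs of the F group. Its N group values were 8.44, 8.88 and 8.71 in DA ECs, against 6.81, 6.70 and 7.28 in aorta ECs. Every DA array was at least 1.16 above every aorta array. This was the widest spread among the 10 genes, 2.43 between the lowest and the highest of the 12 arrays. The log2 fold change of DA over aorta was 1.87 (SE 0.18, adjusted p = 7.44e-05, limma) in the F group and 1.75 (SE 0.18, adjusted p = 0.000152, limma) in the N group. With both stages together the fold was 3.50, with a 95% interval of 2.88 to 4.25.

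Markers of other cell types that carry N-cadherin or CAR moved in part with these 2 genes. Of the 9 smooth muscle markers, 4 were higher in ECs of the DA over both stages (3.19% of all probe sets), 1 was lower (4.93% of all) and 4 did not pass. Actg2, Tagln, Des and Acta2, which encode contractile and cytoskeletal proteins of muscle, had log2 fold changes of 1.52, 1.03, 0.73 and 0.58, and the cofactor gene Myocd had -0.59. Smtn and Cnn1, which did not pass, had -0.00 and 0.38, and Cnn1 passed with the replicate number as a block (0.0372). No smooth muscle marker lay below the lys spike on every array. Of the 4 mesothelial and epicardial markers measured, Msln, a surface protein of mesothelium, was higher by 0.56 (adjusted p = 0.00244, limma) and Wt1 had 0.05. Krt19 of that list had the opposite sign, at -0.35, and passed only without DA replicate 1 of the N group (adjusted p = 0.0471, limma) or with that block (0.0234). The list averaged 5.07 to 5.14 in DA ECs and 4.89 to 5.10 in aorta ECs of the F group, and 4.95 to 5.07 in DA ECs and 4.84 to 5.05 in aorta ECs of the N group. Of the 6 cardiomyocyte markers measured, 5 were tested, and Tnnt2, cardiac troponin T, was lower in the DA at -0.70, while Actc1 and Myl7 had 0.09 and -0.00. The list averaged 5.10 to 5.22 in DA ECs and 5.07 to 5.35 in aorta ECs of the F group, and 4.91 to 5.40 in DA ECs and 5.23 to 5.50 in aorta ECs of the N group. Fibroblast and matrix markers averaged 7.93 to 8.08 in DA ECs and 7.91 to 8.05 in aorta ECs of the F group, and 8.02 to 8.19 in DA ECs and 7.95 to 8.01 in aorta ECs of the N group. Most epithelial markers were near the floor. Epcam was below the lys spike on all 12 arrays, 4 of the 6 markers averaged below it, and Krt8 and Krt18, the 2 that were tested, had log2 fold changes of 0.05 and 0.01. The part of smooth muscle, fibroblast and mesothelial cells in the Cdh2 and Cxadr results was not tested.

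**Figure D2:**
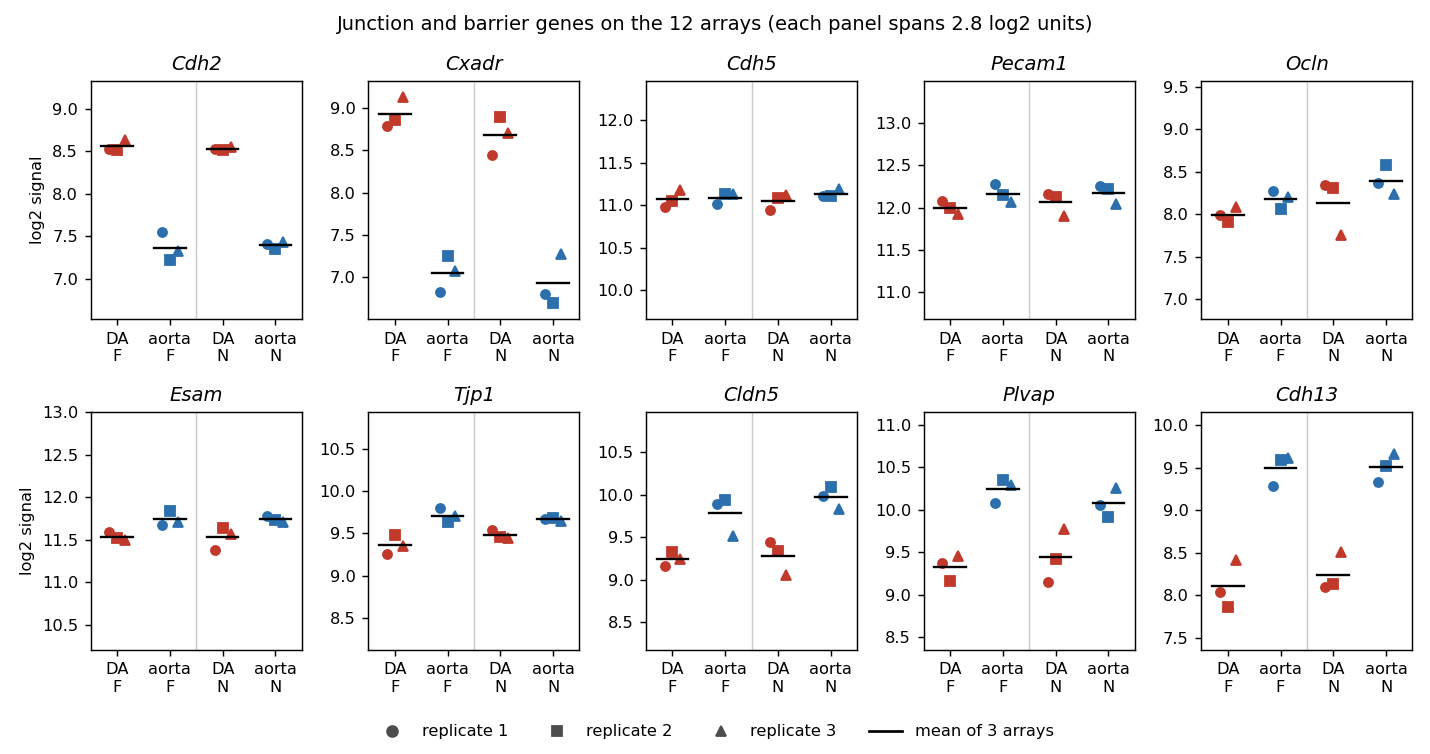
The log2 signal of each gene on each of the 12 arrays is plotted by group, DA left of aorta in the F group and then in the N group, with a line at the mean of 3 arrays and a marker shape for each replicate number. Every panel spans 2.8 log2 units, so that the gap of Cxadr between vessels, 1.81 over both stages, can be set beside the points of Cdh5, whose 12 arrays lie within 0.25.

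Cdh5, the cadherin specific to endothelium, did not differ between the vessels beyond the spread of the arrays. Its log2 signal was 10.98, 11.05 and 11.18 in DA ECs, against 11.01, 11.13 and 11.13 in aorta ECs of the F group. Neonates had 10.94, 11.09 and 11.12 in DA ECs, against 11.11, 11.11 and 11.19 in aorta ECs. The groups overlapped at both stages. Over both stages the log2 fold change was -0.05 with a 95% interval of -0.22 to 0.11 (adjusted p = 0.837, limma).

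Pecam1 encodes CD31, the protein by which the cells were sorted, so that its presence in all groups is no finding. On the log2 scale it gave 12.08, 11.99 and 11.92 in DA ECs, against 12.28, 12.15 and 12.06 in aorta ECs of the F group. The N group gave 12.16, 12.12 and 11.90 in DA ECs, against 12.25, 12.22 and 12.04 in aorta ECs. The DA array was below the aorta array of the same number in 6 of 6 pairs, while the groups overlapped. DA over aorta, both stages gave a log2 fold change of -0.14 with a 95% interval of -0.32 to 0.05 (adjusted p = 0.466, limma).

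Esam and Ocln did not pass either. Esam, an adhesion protein of endothelial tight junctions and platelets, lay between 11.38 and 11.64 on the 6 DA arrays and between 11.68 and 11.84 on the 6 aorta arrays. These ranges did not overlap, but the log2 fold change of -0.21 had an adjusted p of 0.15 by limma. It passed with array weights (adjusted p = 0.0256, limma) and with the methods' t-test (Benjamini-Hochberg adjusted p = 0.014), and in the F group with array weights alone (adjusted p = 0.0275, limma). Ocln, the tetraspan strand protein occludin, lay between 7.76 and 8.35 on the DA arrays and between 8.06 and 8.58 on the aorta arrays. Its ranges overlapped, and the log2 fold change over both stages was -0.22 with a 95% interval of -0.47 to 0.03 (adjusted p = 0.344, limma). The lowest Ocln value came from DA replicate 3 of the N group, 7.76, whereas the other 2 DA arrays of that group had 8.35 and 8.30.

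Cdh13 was the gene with the lowest DA over aorta value. Log2 signals were 8.03, 7.86 and 8.41 in DA ECs, against 9.29, 9.59 and 9.62 in aorta ECs of the F group. Those of the N group were 8.09, 8.13 and 8.50 in DA ECs, against 9.33, 9.52 and 9.66 in aorta ECs. No DA array reached any aorta array. T-cadherin is known as a receptor for adiponectin and low density lipoprotein. The log2 fold change was -1.40 (SE 0.17, adjusted p = 0.000451, limma) in the F group and -1.26 (SE 0.17, adjusted p = 0.00108, limma) in the N group. Neither call held with the methods' t-test (Benjamini-Hochberg adjusted p = 0.0934 in the F group and 0.114 in the N group). On the linear scale the DA over aorta fold was 0.38 in the F group and 0.417 in the N group.

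Plvap was lower in the DA in the F group and over both stages, and its call within each stage depended on the fit. The log2 signal stood at 9.37, 9.16 and 9.46 in DA ECs, against 10.08, 10.36 and 10.30 in aorta ECs of the F group. It stood at 9.15, 9.43 and 9.77 in DA ECs, against 10.06, 9.92 and 10.25 in aorta ECs, of the N group. The vessels did not overlap at either stage, and DA replicate 3 of the N group stood nearest to the aorta. DA over aorta, it differed by a log2 fold change of -0.92 (SE 0.17, adjusted p = 0.00633, limma) in the F group and -0.77 (SE 0.12, adjusted p = 0.000979, limma) over both stages. For the N group it was -0.62 with an adjusted p of 0.0697 by limma, which became 0.00898 when the replicate number entered as a block, and 0.0198 without DA replicate 3 of the N group. The F group call was lost with the methods' t-test (Benjamini-Hochberg adjusted p = 0.0933).

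Cldn5, the chief claudin of ECs, was lower in the DA over both stages. Its log2 signal was 9.16, 9.32 and 9.24 in DA ECs, against 9.89, 9.94 and 9.51 in aorta ECs of the F group. Neonatal values were 9.44, 9.33 and 9.06 in DA ECs, against 9.99, 10.09 and 9.83 in aorta ECs. The 6 DA arrays lay below the 6 aorta arrays, with aorta replicate 3 of the F group nearest to them. Over both stages the log2 fold change was -0.62 (SE 0.10, adjusted p = 0.00209, limma). In the F group it was -0.54 with an adjusted p of 0.069 by limma, 0.00614 with the block, and 0.0326 without aorta replicate 3. Cldn5 also passed in the F group with quantile normalization (0.0486) and with array weights (0.00196), whose estimate did not converge. The same held with the lys filter applied on each array (0.0461) and with a trended, robust variance model (0.046). The N group alone gave -0.69 (adjusted p = 0.0206, limma). That call was lost without DA replicate 2 (0.0719) or 3 (0.0833), and without aorta replicate 1 (0.0839) or 2 (0.0996). It was also lost in the limma fit of only the arrays compared (0.0819) and with the methods' t-test (Benjamini-Hochberg adjusted p = 0.205).

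Tjp1, the scaffold ZO-1, had the smallest difference that passed. It lay between 9.26 and 9.54 on the 6 DA arrays and between 9.63 and 9.80 on the 6 aorta arrays. The ranges did not overlap. Taking both stages, the log2 fold change was -0.27 (SE 0.07, adjusted p = 0.0486, limma). The call was lost when any 1 array other than DA replicate 2 of the F group was left out, with adjusted p-values of 0.0597 to 0.12. It was also lost without the filter on low values (0.0968), with quantile normalization (0.0657), with each array centred on its median (0.0622) and with array weights (0.0589). In the F group alone the log2 fold change was -0.34, with an adjusted p of 0.119 by limma and 0.0381 with the block, and in the N group it was -0.19 (adjusted p = 0.646, limma).

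The endothelial markers, whose averages stand above, had a median log2 fold change of -0.16, and 1 of the 11, Flt1, was lower in ECs of the DA. The share of ECs among the sorted cells, and its part in the lower values of Cdh13, Plvap, Cldn5 and Tjp1, was not tested.

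The RefSeq promoter table for the rat genome build GRCr8 matched 4 of the 10 genes: Cldn5, Ocln, Tjp1 and Plvap. The 250 bases before the start are shown for the 3 of them that passed over both stages, since all 3 genes were lower in the DA and their promoters can be set side by side. All 3 genes lie on the minus strand, each sequence runs 5′ to 3′ in the direction of its gene, and capitals mark matches to the motifs searched, whose positions are counted back from base -1 next to the start. They are Cldn5 at chr11:95718599-95718848, Tjp1 at chr1:128325361-128325610 and Plvap at chr16:18231280-18231529. For any gene with more than 1 start in the promoter table, the first listed was taken, and other starts were not searched.
Cldn5: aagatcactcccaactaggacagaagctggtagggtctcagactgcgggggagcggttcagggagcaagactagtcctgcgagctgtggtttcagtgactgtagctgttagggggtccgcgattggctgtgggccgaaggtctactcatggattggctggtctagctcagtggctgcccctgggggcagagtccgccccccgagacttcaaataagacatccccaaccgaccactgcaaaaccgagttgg
Tjp1: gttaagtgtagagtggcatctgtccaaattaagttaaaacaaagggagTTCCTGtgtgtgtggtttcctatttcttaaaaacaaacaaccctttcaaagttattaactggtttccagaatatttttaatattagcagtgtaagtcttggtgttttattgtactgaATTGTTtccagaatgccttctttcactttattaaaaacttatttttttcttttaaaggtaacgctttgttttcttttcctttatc
Plvap: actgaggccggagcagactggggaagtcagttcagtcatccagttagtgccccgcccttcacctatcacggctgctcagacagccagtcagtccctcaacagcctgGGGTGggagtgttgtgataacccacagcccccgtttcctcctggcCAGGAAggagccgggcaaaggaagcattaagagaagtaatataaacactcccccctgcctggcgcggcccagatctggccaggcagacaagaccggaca
The search covered both strands for CCGGAA and a second motif, TTCCTG, of ETS factors, for the SOX motif AACAAT, for the E-boxes CAGCTG and, in the other form, CACCTG, for the AP-1 motif TGACTCA and for the KLF motif CACCC. The E-box CACCTG begins with 4 of the 5 letters of CACCC, so that these share letters but cannot match at the same position, and no match below overlapped another. The Cldn5 promoter held none of the 7. The Tjp1 promoter held TTCCTG from base -202 and the SOX motif, read on the other strand as ATTGTT, from base -85. The Plvap promoter held the KLF motif, read as GGGTG, from base -144 and the second ETS motif, read as CAGGAA, from base -99. TTCCTG occurred in 24.7% of the 33469 promoters of the table, the KLF motif in 49.2% and the SOX motif in 10.3%. Of the motifs that none of the 3 promoters held, CCGGAA occurred in 12.6%, the E-box CAGCTG in 12%, the E-box CACCTG in 15.9% and the AP-1 motif TGACTCA in 4.05%. The promoters also differed in base composition. GC made up 58.4% of the Cldn5 window and 59.2% of the Plvap window, but 30.4% of the Tjp1 window, against a median of 51.2% over the table, and the Cldn5 window held 10 CpG, that of Plvap 8 and that of Tjp1 1, against a median of 5. A match is a run of letters in the window and not a measured site.

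The arrays of a group varied in a way that followed the replicate number for some of the genes. Of the sum of squares over the 12 arrays, the vessel accounted for 98.3% for Cdh2, 94.6% for Cxadr and 92.7% for Cdh13. For Plvap, Cldn5, Tjp1 and Esam it accounted for 81.4%, 79.8%, 76.0% and 69.0%. For Cdh5 and Pecam1 another term was larger. The replicate number took 64.3% for Cdh5 and 56.4% for Pecam1, against 13.4% and 34.9% for the vessel. Pecam1 was highest in replicate 1 and lowest in replicate 3 of all 4 groups, and Cdh13 was highest in replicate 3 of all 4 groups. These steps were small for Pecam1, 0.21 between the replicate means on the log2 scale, and larger for Cdh13, 0.36. For Ocln, 44.0% went with no term, the vessel took 26.1% and the stage took 17.4%. Over the 10 genes the median share of the vessel was 77.9%, against 8.19% over all tested probe sets, and that of the replicate number was 7.47%, against 41.4%. These medians too describe genes chosen with earlier results known.

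**Figure D3:**
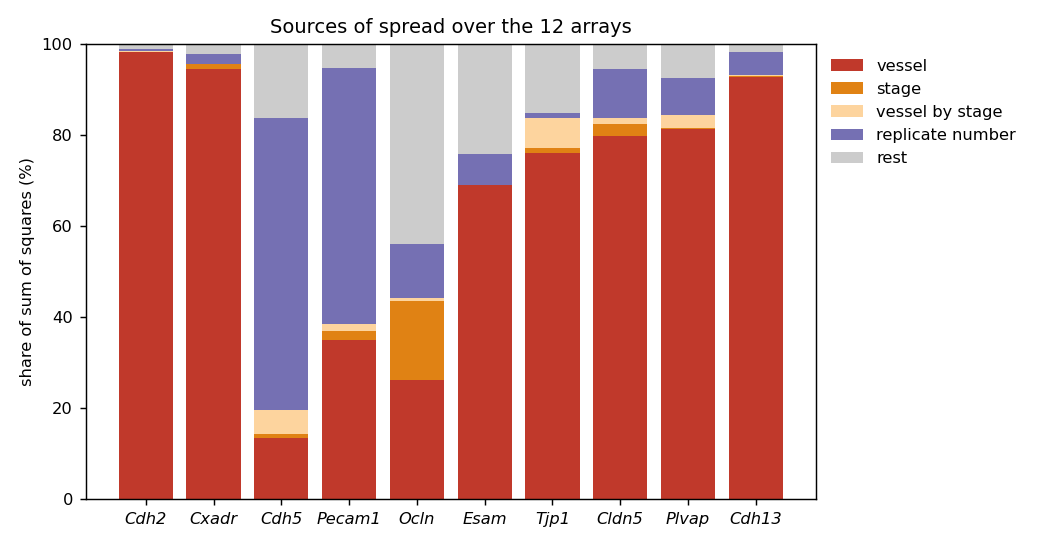
Stacked bars give, for each of the 10 genes, the percent of the sum of squares over 12 arrays that went with the vessel, the stage, vessel by stage, the replicate number and the rest. The vessel fills 98.3% of the bar of Cdh2, and the replicate number fills 64.3% of that of Cdh5.

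The second question was whether the genes changed in the first 30 minutes after birth. None of the 10 passed the test of N against F in either vessel (limma). Among all tested probe sets, 0.00535% passed in the DA, which was 1 probe set, and 0% in the aorta. The unadjusted p was under 0.05 for 0 of the 10 genes in either vessel, against 2.01% of all probe sets in the DA and 1.38% in the aorta. The N and F arrays overlapped for all 10 genes in both vessels, whereas they were apart for 5.03% of all probe sets in the DA and 4.39% in the aorta. Within the DA the log2 fold changes of N over F ran from -0.25 for Cxadr to 0.14 for Ocln, with a median of 0.05. In the aorta they ran from -0.17 for Plvap to 0.22 for Ocln, with a median of 0.01. The 95% intervals of the 10 genes reached at most from -0.64 to 0.52 in the DA and from -0.53 to 0.57 in the aorta, which are the bounds that 3 arrays a group set on a change. Cxadr averaged 8.68 ± 0.22 in DA ECs of the N group and 8.92 ± 0.18 in those of the F group (SD, n = 3 each). Ocln averaged 8.40 ± 0.17 in aorta ECs of the N group and 8.18 ± 0.11 in those of the F group, and Plvap 10.08 ± 0.17 in the N group and 10.25 ± 0.14 in the F group of the same vessel (SD, n = 3 each). These shifts were near the spread between arrays. With array weights, whose estimate did not converge, Ocln, Cxadr and Plvap passed in the aorta, at 0.47, -0.49 and -0.40, in a fit that called 2436 of 18690 probe sets for this comparison. Cdh2 and Cdh5, at -0.02 each in the DA, had the values nearest to 0 there together with Esam at -0.01. For the structural genes of the tight junction, the N over F values in the DA were 0.04 for Cldn5, 0.14 for Ocln and 0.11 for Tjp1.

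**Figure D4:**
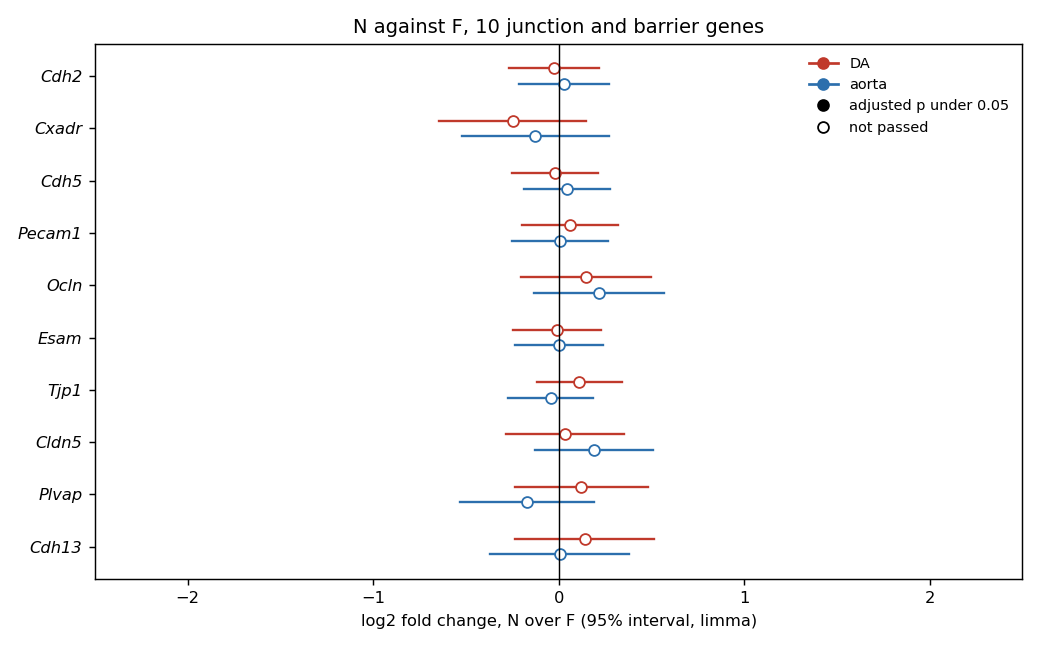
The log2 fold change of N over F is plotted for each of the 10 genes for ECs of the DA and of the aorta, with its 95% interval from limma, on the axis range used for the vessel contrast. Every interval crosses 0, and the points lie between -0.25 and 0.22.

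The vessel contrast itself was set against that of the other stage by an interaction term. The difference of the DA over aorta log2 fold change, N minus F, ran from -0.15 for Cldn5 to 0.29 for Plvap over the 10 genes. None passed, at an adjusted or an unadjusted p of 0.05 (limma), and neither did any other probe set at the adjusted threshold, against 0.931% of all probe sets at the unadjusted one. For Plvap the contrast was -0.62 in the N group and -0.92 in the F group, and the smallest unadjusted p of the 10 genes was 0.236. The intervals of the differences reached from -0.68 to 0.80, and set no tighter bound on a change of the contrast.

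The partners of the 10 genes were then read as lists, over both stages and by the same fit, in which 8.12% of all probe sets passed, 3.19% as higher and 4.93% as lower. Each list's count is to be read beside these shares, and several lie near them. Of 12 adherens junction partners measured, 1 was higher in ECs of the DA, 1 lower and 10 did not pass. The lower one was Ptprj, a receptor phosphatase of cell junctions, with a log2 fold change of -0.87 (adjusted p = 1.23e-05, limma), also called in the F group (-0.94) and in the N group (-0.81). The higher one was Nectin1, an immunoglobulin-type adhesion protein, at 0.48 (adjusted p = 0.0443, limma), and this call was lost without any of 10 of the 12 arrays (0.052 to 0.108). The catenins Ctnnb1 and Ctnnd1, which bind cadherin tails, had -0.17 and -0.12 and did not pass. The list's median was 0.08. Of the other cadherins only Cdh8 and Cdh15 were tested. Cdh8, a type II cadherin known from neurons, was lower at -0.67 (adjusted p = 0.0364, limma), near the lys spike, and lost its call without any of 8 arrays (0.0535 to 0.0929), and Cdh15 of muscle had -0.27.

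Among 14 tight junction scaffolds, JAMs and marvel proteins tested, 1 was lower and 13 did not pass, with a median of -0.10. The lower one was Marveld2, tricellulin, the occludin relative of the corners where cells meet, at -0.78 (adjusted p = 0.00407, limma). F11r, which encodes JAM-A, and the cingulin relative Cgnl1 had 0.01 and 0.09. Of 19 other claudins measured, 13 were tested, 3 were lower and 10 did not pass, with a median of -0.12. Cldn11, known from myelin and testis, had -0.93 (adjusted p = 0.0134, limma), Cldn22 had -0.76 and Cldn19, known from kidney and nerve, had -0.65 (adjusted p = 0.00307, limma). The Cldn22 call, at an adjusted p of 0.0236 by limma, was lost without any of 6 arrays (0.0505 to 0.0616). All 3 had low signals, from 5.42 to 7.51 on the DA arrays and from 6.22 to 8.12 on the aorta arrays. Cldn12 and Cldn15 had 0.04 and -0.05 and did not pass.

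Of 11 genes of caveolae, diaphragms and transcytosis tested, 2 were lower and 9 did not pass, with a median of -0.13. The pair that fell were the membrane-shaping ATPases Ehd4, at -0.62 (adjusted p = 0.00431, limma), and Ehd2, which sits at the neck of caveolae, at -0.36 (adjusted p = 0.00901, limma). Cav1, the coat protein of caveolae, had 0.10 and Cavin3 had -0.09. Of 23 barrier regulators tested, only Calcrl passed. It encodes the receptor that forms the adrenomedullin receptor with RAMP2, and its log2 fold change was -0.68 (adjusted p = 0.000134, limma), while Ramp2 had 0.04. The median of the list was -0.19, and the remaining 22, Tie1 at -0.19 among them, did not pass. Of 12 genes of junctional adhesion and leukocyte passage, 4 passed as lower, 1 passed as higher and 7 did not pass, with a median of -0.11. Vcam1, the ligand of leukocyte integrins on activated endothelium, had -1.52 (adjusted p = 8.07e-07, limma), and Pvr and Icam1 had -0.66 and -0.45. Podxl was the fourth, at -0.29, and Selp was higher at 0.31 (adjusted p = 0.0477, limma), a call lost without any of 10 arrays (0.0576 to 0.131). Cd34 and Mcam had 0.10 and -0.10.

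**Figure D5:**
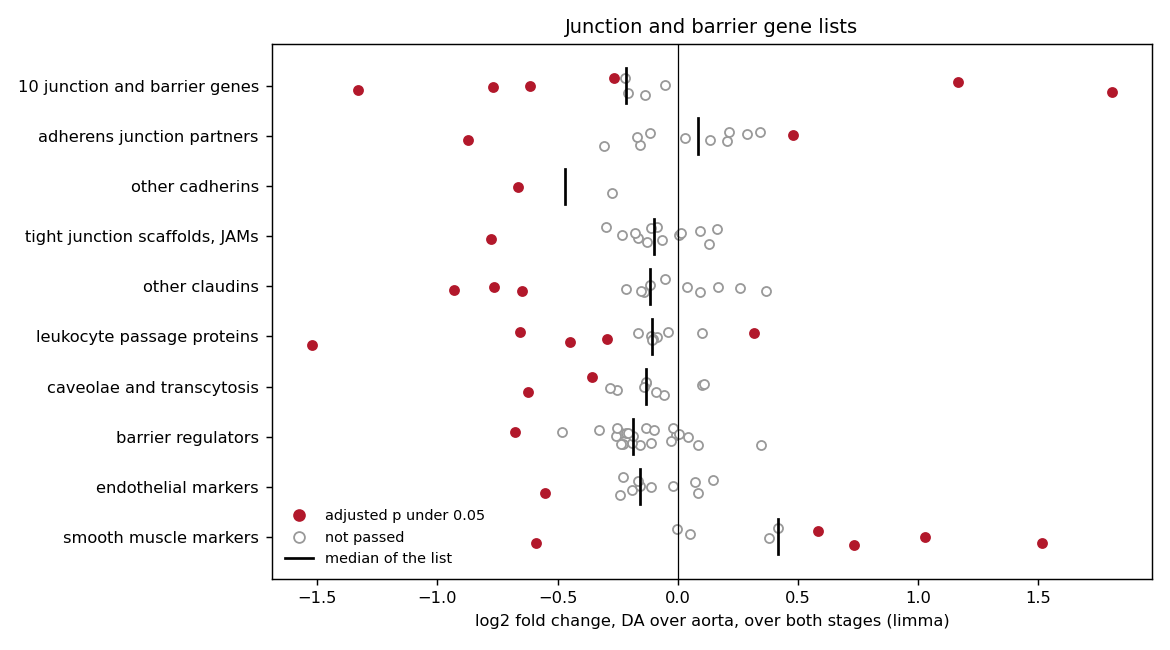
Each point is the log2 fold change of DA over aorta, over both stages, of 1 gene of a junction or marker list, with filled points past an adjusted p of 0.05 and a bar at the list's median. The medians of the junction lists run from -0.47 for the 2 other cadherins to 0.08 for the adherens junction partners, beside -0.21 for the 10 genes and 0.42 for the smooth muscle markers.

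The calls in the remaining marker lists are to be set against 8.12% of all probe sets. Of 11 endothelial markers, 1 was lower in the DA and 10 did not pass, with a median of -0.16. The lower one was the VEGF receptor gene Flt1 at -0.55 (adjusted p = 0.000815, limma), and Eng had 0.07. Of 8 fibroblast and matrix markers tested, 1 was higher, 2 were lower and 5 did not pass, with Fbln1 at -0.50, Col1a1 at -0.48 and Col1a2 at 0.30, and with Postn at 0.15 and Col3a1 at 0.25 among those that did not pass. The Col1a2 call was lost without any of 10 arrays (0.05 to 0.0758). The 2 leukocyte, 3 erythroid and 3 Schwann and neural markers that were tested did not pass in either direction, though the globin gene Hbb did without DA replicate 1 of the F group (adjusted p = 0.0138, limma). Among them Cd68 had -0.31, Csf1r 0.08, Hbb -0.45, Alas2 -0.10, Sox10 -0.14 and Dbh -0.03. These values over both stages hide a difference by stage in the erythroid list. It averaged 5.95 to 6.49 in DA ECs and 5.85 to 6.16 in aorta ECs of the F group. In the N group it averaged 5.40 to 5.48 in DA ECs and 5.92 to 6.06 in aorta ECs. For N against F, 0 genes of any of these lists passed in the DA, in the aorta or for the difference of the vessel contrast.

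The array profiles of Cxadr and Cdh13 served to place the extremes of the set. Over 11902 single-gene probe sets, those most like Cxadr by Pearson correlation were Shisa3 (r = 0.988), Gdf6 (r = 0.985) and Slc7a8 (r = 0.984). Gdf6 is a ligand of the BMP family and Slc7a8 carries neutral amino acids. Those most like Cdh13 were Mmp28 (r = 0.985), Dpep2 (r = 0.985) and Nrgn (r = 0.979). Mmp28 and Dpep2 encode a matrix metalloprotease and a dipeptidase, and Nrgn a calmodulin-binding protein known from neurons. The 12 arrays share the vessel contrast, so that any gene with a wide gap between the vessels scores high, and the values are a description.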

How the data were processed

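RNA of sorted ECs was hybridized by the authors to Affymetrix Rat Gene 1.0 ST arrays, 12 in all and 3 per group. What was deposited is a log2 value for each probe set and array, which the authors had already summarised and normalized by a method not given in the sources used here. Precision is limited by the number of arrays. Nothing was normalized again. Of 26468 probe sets, 15313 carried 1 gene symbol, 317 several and 10838 none, by the platform's annotation updated through RefSeq. Testing was restricted to probe sets whose 12-array mean was no lower than the mean of the lys spike, and 7778 were left out. The study also filtered by this spike, but its exact rule is not stated and it removed more probe sets.

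A limma model (version 3.58.1, under R 4.3.3) gave each group its own mean and used all 12 arrays. It compared DA and aorta within F, within N and across stages, and N with F within each vessel, and it tested whether the vessel contrast differed by stage. Calls were made at a Benjamini-Hochberg adjusted p under 0.05 over 18690 probe sets, and the steps were tested on simulated data. Where a probe set was chosen for a gene, it was the brightest. The 10 genes and all lists were chosen with earlier results of these data known. All 10 genes are named. In each list up to 4 genes that passed, by the size of their log2 difference over both stages, and up to 2 that did not, by mean signal, are named. Acta2, Ptprc, Epcam and Podxl were named after their values were seen.

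The titles number the replicates 1 to 3 in each group, and deviations from the group means were compared over the tested probe sets. Same-number arrays had r between 0.539 and 0.82 (number 1), between 0.102 and 0.301 (number 2) and between 0.393 and 0.735 (number 3), whereas arrays of unlike number had r between -0.738 and 0.368, so the number was taken to pair the arrays and was used as a block in an alternative fit. The other alternatives were the filter, the scaling of the arrays, the variance model, array weights, the arrays in the fit, the methods' t-test, a fold of at least 2 and leaving out each array.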

Additional observations from a re-analysis of the deposited data

Results flagged for a closer look

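Alas2, the erythroid enzyme of heme synthesis and 1 of the cell type markers, drew attention because its vessel contrast pointed opposite ways at the 2 stages: every DA array lay above every aorta array in the F group and below every aorta array in the N group. Its mean log2 signal was 5.02 in DA ECs and 4.83 in aorta ECs of the F group, and 4.47 in DA ECs and 4.85 in aorta ECs of the N group. The difference of the contrasts, N minus F, was -0.57 (SE 0.18, adjusted p = 1.0, limma), and Alas2 lay below the lys spike on 4 of 12 arrays.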

How the results depend on the processing

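The alternatives were run for the 10 genes in each comparison and, over both stages, for the list genes named by the rule, but not for Acta2, Podxl, Ptprc or Epcam or for list genes within a stage. Of these 2521 values, 2387 kept their side of the threshold, 108 lost a call, 26 gained one and 0 turned the sign of a called value, while 75 uncalled values had the opposite sign. Each of the 10 genes had 1 probe set, so the mean of probe sets changed nothing.

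With the replicate number as a block, which uses the pairing of the arrays, the genes called among the 10 came to 6 in the F group, 5 in the N group, 6 over both stages and 0 for N against F. All called probe sets came to 1951 in the F group (705 without the block), 1358 in the N group (586), 3327 over both stages (1518), 10 for birth in DA ECs (1) and 3 for birth in aorta ECs (0). The block gave calls to Cldn5 and Tjp1 in the F group and Plvap in the N group, and over both stages to the marker genes Cd68, Cnn1, Col3a1 and Krt19. It changed no other call among the values for which it was run.

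The methods' t-test with a fold of at least 2, at its unadjusted threshold, selected 3 of the 10 genes in each stage, and 262 (F group) and 242 (N group) of 18690 probe sets. After Benjamini-Hochberg the t-test called 0 of the 10 in the F group, 1 in the N group and 7 over both stages, against 4, 4 and 6 by limma, and 67, 44 and 1789 of all probe sets. It was not defined for the difference of the vessel contrast. Limma with a fold of at least 2 called 3 of the 10 in the F group, 3 in the N group and 3 over both stages, and 257, 237 and 245 of all probe sets. Array weights, whose estimate stopped before convergence, called 3 of the 10 for N against F in the aorta: Ocln at 0.47, Cxadr at -0.49 and Plvap at -0.40. They called 2468 probe sets in the F group, 2131 over both stages and 2436 for N against F in the aorta. The fit with only the arrays compared called 318 probe sets in the N group, and could not be used over both stages. The causes of these changes were not tested.

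Leaving out 1 array at a time, the calls among the 10 numbered 4 to 5 in the F group, 3 to 4 in the N group, 5 to 6 over both stages and 0 for N against F. All called probe sets numbered 489 to 766 in the F group, 318 to 583 in the N group, 1121 to 1509 over both stages and 0 to 4 for N against F in the DA. With 3 pools a group, small differences such as that of Tjp1 stand near the threshold.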
